A study of Mus musculus with 12 samples.

Results

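*Srgn*, which encodes the proteoglycan core protein serglycin, and 9 genes of the enzymes that build and sulfate its sugar chains were followed in cultured mouse mast cells. The genes were chosen by symbol and were *Srgn* (NCBI Gene 19073), *Xylt1* (233781), *Ext1* (14042), *Ext2* (14043), *Ndst1* (15531), *Ndst2* (17423), *Glce* (93683), *Hs2st1* (23908), *Hs6st1* (50785) and *Chst11* (58250). All 10 were among the 16234 genes of the count table, and all 10 passed the filter on low counts that left 12208 genes for testing. The cells were bone marrow-derived mast cells (BMMCs) from C57BL/6N mice of both sexes aged 6 to 12 weeks, grown for 4 to 8 weeks in IL-3 and SCF until over 80% stained for the mast cell receptors KIT and FcεRI. Mice were littermates whose *Elk4* genotype was labelled WT (wild type), HZ (heterozygous) or KO (knockout), *Elk4* being the gene of an ETS-family transcription factor, and the knockout was a conventional allele present in every cell of the animal. Cells of each genotype were either resting, which the labels call untreated, or stimulated by 0.5 µg/ml anti-DNP IgE overnight followed by 100 ng/ml of the antigen DNP-HSA for 1 h. RNA-seq gave 12 libraries, 2 in each of 6 groups.

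Library totals lay between 29697958 and 35531667 counts on genes, and replicates differed by a biological coefficient of variation of 4.01%. The labels do not say whether the 2 libraries of a group came from separate mice or cultures, so p-values measure the spread between these libraries. Reads on *Elk4* did not follow the genotype labels. In CPM, which are read counts scaled to library size, here by TMM factors that take most genes as alike between libraries, the gene had means of 75.8, 89.6 and 66.6 in resting cells labelled WT, HZ and KO, and 72.6, 64.4 and 67.8 CPM in stimulated cells, and resting KO lay 0.19 below WT on the log2 scale (edgeR adjusted p = 0.0087). The study reports a western blot of WT, HZ and KO BMMCs as evidence of the deletion. A blot reads protein, which these RNA counts do not measure. Groups are named by their labels. Mast cell markers were high in every library, with a summed level of 52064 to 64262 CPM over the 15 listed genes present. The neutrophil list summed to 20.4 to 338 CPM, nearly all of it *Ctsg*, which had a mean of 306 CPM in resting WT, 42.8 in resting HZ and 21.0 in resting KO, while *Mpo* stood at 0.10 CPM or below in every group. The part of these *Ctsg* differences in the genotype results below was not tested.

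Heparin and chondroitin sulfate are linear sugar chains built on serine residues of serglycin, and in mast cells the highly charged chains hold proteases and histamine in the secretory granules. A xylosyltransferase starts the linkage sugars, the EXT1 and EXT2 complex extends the heparin backbone, and NDST enzymes replace acetyl with sulfate groups on glucosamine, which opens the chain to the epimerase GLCE and to the uronyl and glucosaminyl O-sulfotransferases. NDST2 is the isoform known for mast cell heparin. Cultured BMMCs are known to carry much of their serglycin as sulfated chondroitin, on which CHST11 places sulfate.

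The attachment sites for these chains lie in a repeat of serine and glycine codons in *Srgn*. In transcript Srgn-201 (GENCODE annotation of GRCm38, chromosome 10), the longest open reading frame has 152 codons and a single unbroken run of 10 serine-glycine codon pairs, from codon 90 to codon 109. Codons 80 to 119 are shown because they hold the run, which is in capitals, and the same run is present in the longest frame of 3 of the 5 annotated *Srgn* transcripts.
Srgn codons 80 to 119: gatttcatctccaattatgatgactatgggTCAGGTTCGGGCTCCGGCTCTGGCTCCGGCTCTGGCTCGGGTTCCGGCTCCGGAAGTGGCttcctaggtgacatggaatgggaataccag

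The promoters of the genes with the highest levels were read for the letters of ETS factors (CCGGAA), of MITF E-boxes (CACGTG or CATGTG), of GATA factors (AGATAA or TGATAA), of AP-1 (TGACTCA or TGAGTCA) and of CRE sites (TGACGTCA), on both strands. RefSeq windows for GRCm38.p6 were used, 250 bases before each annotated start. They were at hand for 7 of the 10 genes and not for *Ndst1*, *Ext1* and *Xylt1*. *Srgn* has 2 such windows. The one shown (chr10:62527446-62527695, minus strand) held 1 ETS match, in capitals, 52 bases before the start, and none of the other letters, and the other (chr10:62507758-62508007, minus strand) held no match to any of them. The *Ndst2* window (chr14:20734563-20734812, minus strand) held no match to any of them. The windows of the other genes at hand were read as well. They held no match except 1 to the E-box letters in *Ext2*, 58 bases before the start.
Srgn promoter: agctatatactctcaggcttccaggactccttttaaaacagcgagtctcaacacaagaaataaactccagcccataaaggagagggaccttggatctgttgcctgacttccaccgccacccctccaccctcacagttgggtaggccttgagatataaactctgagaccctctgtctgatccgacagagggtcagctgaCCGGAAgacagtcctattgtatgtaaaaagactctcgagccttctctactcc
Ndst2 promoter: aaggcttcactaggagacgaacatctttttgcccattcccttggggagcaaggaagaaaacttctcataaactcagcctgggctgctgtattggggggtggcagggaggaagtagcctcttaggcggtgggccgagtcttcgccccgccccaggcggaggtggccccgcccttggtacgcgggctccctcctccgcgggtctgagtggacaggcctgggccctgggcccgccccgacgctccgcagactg
Among all 32851 windows of this length, 12% held the ETS letters, 17.6% the E-box letters, 16.6% the GATA letters, 4.46% the AP-1 letters and 1.55% the CRE letters. These matches describe letters and not bound sites.

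Levels were compared between genes in FPKM, which is corrected for gene length and library total. *Srgn* had a median of 1176 FPKM over the 12 libraries and ranked 23rd to 31st of all genes. *Ndst2* was the most abundant of the enzymes at a median of 162 FPKM (100 to 268), followed by *Hs6st1* at 60.1 (46.3 to 76.4) and *Chst11* at 23.2 (22.3 to 28.4). *Ext2* stood at 19.2, *Ndst1* at 6.69, *Xylt1* at 5.39, *Ext1* at 3.38, *Hs2st1* at 2.70 and *Glce* at 1.14 FPKM. The ranges of *Chst11* and *Ext2* did not overlap (22.3 to 28.4 against 15.6 to 21.6), but those of *Ndst1* and *Xylt1* did (4.80 to 10.1 against 4.57 to 7.04), as did those of *Ext1* and *Hs2st1* (2.26 to 4.68 against 2.22 to 3.18). *Srgn* took up 0.299 to 0.348% of all counts on genes. It varied least in FPKM, by 1.16 times between its lowest and highest library, whereas *Ndst2* varied most, by 2.68 times. This order depends on the scale. In TMM-scaled group means *Srgn* varied by 1.43 times, *Hs2st1* least by 1.11 times and *Ndst2* most by 2.22 times.

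**Figure D1:**
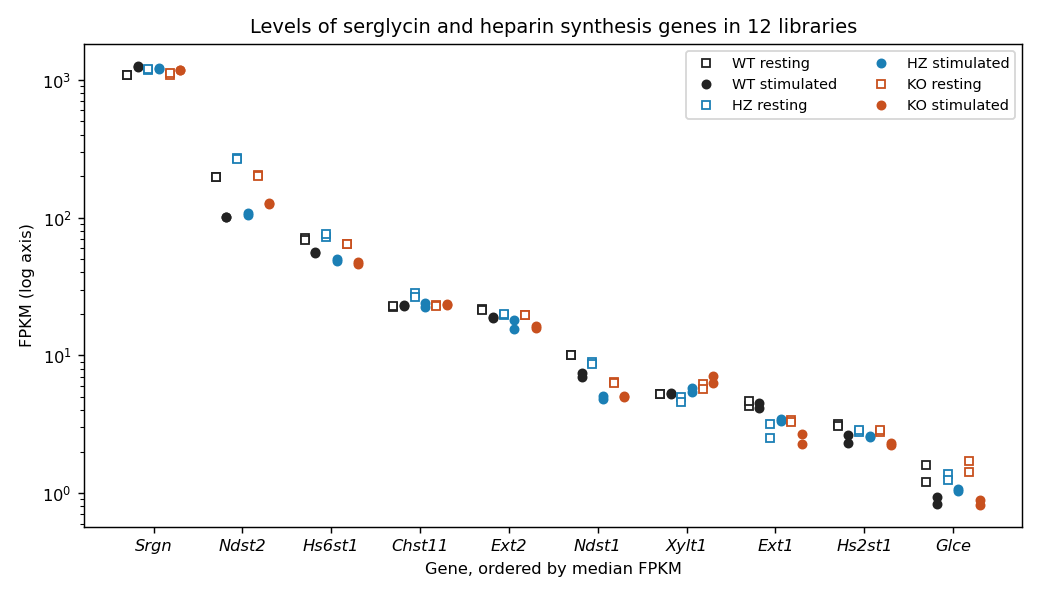
FPKM of the 10 genes on a log axis, with 1 point for each of the 12 libraries (open squares, resting; filled circles, stimulated; black WT, blue HZ, orange KO). *Srgn* lies near 1176 FPKM throughout, *Ndst2* leads the enzymes with separate resting and stimulated levels, and *Glce* is lowest at a median of 1.14 FPKM.

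Within the pair of N-deacetylase/N-sulfotransferases among the 10 genes, *Ndst2* exceeded *Ndst1* in FPKM by 13.7 to 31.9 times. The ratio was 19.5 and 19.6 in resting WT libraries, 30.2 and 30.9 in resting HZ, and 31.9 and 31.5 in resting KO. After stimulation it was 13.7 and 14.3 in WT, and 21.0 and 21.9 in HZ beside 24.8 and 25.5 in KO, below the resting libraries of the same label in each case. *Ndst3* and *Hs6st2*, isoforms of *Ndst1*/*Ndst2* and *Hs6st1* that were not among the 10 genes and were picked after their values were seen, had means of 15.1 and 82.0 FPKM over the 12 libraries.

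The response to IgE and antigen was compared within each genotype label on TMM-scaled counts. No group had IgE alone, so effects of overnight IgE and of 1 h of antigen cannot be told apart. *Srgn* rose and *Ndst2* fell in the cells of all 3 labels, so the level of the core protein mRNA and that of the most abundant enzyme mRNA moved apart. In WT, 5 of the 10 genes passed the test, beside 45.3% of all genes tested. Of them 3 were higher (22.4% of all genes) and 2 lower (22.9%). The WT count was 6, with *Ext2* added as higher, with DESeq2, its size factors, other count filters, only the groups compared or a replicate block. In HZ 6 passed beside 64.4%, with 3 higher (32.9% of all genes) and 3 lower (31.6%). In KO 6 passed beside 40.8%, with 3 higher (20.4% of all genes) and 3 lower (20.5%). The study also asked for a 2-fold change, which 1 of the 10 genes reached in HZ (14.3% of all genes) and 0 in WT (6.77%) and KO (6.61%). These shares are near those of all genes, and the median log2 fold change of the 10 genes was 0.044 in WT, -0.013 in HZ and -0.035 in KO, beside -0.013, -0.0048 and -0.0068 for all genes. RNA was taken from whole cultures, so fewer cells of a type cannot be told apart from less RNA per cell.

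These counts changed with the scale. TMM factors were 1.08 to 1.12 in resting and 0.902 to 0.924 in stimulated libraries. With library totals in place of TMM, the median log2 fold change of all genes shifted to -0.32 in WT, -0.24 in HZ and -0.30 in KO. The share of called genes that were higher then went from 49.4 to 10.2% in WT, from 51.0 to 29.3% in HZ and from 49.9 to 10.5% in KO. With totals, 1 of the 10 genes was higher and 6 were lower in WT, 1 was higher and 5 lower in HZ, and 1 was higher and 7 lower in KO. Response values below are relative to the TMM scale unless totals are named.

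*Srgn* had 2681 and 2672 CPM in resting WT and 3777 and 3851 CPM in stimulated WT libraries. In HZ it went from 2986 and 3062 to 3614 and 3623 CPM, and in KO from 2730 and 2802 to 3579 and 3617 CPM. The stimulated libraries lay above the resting libraries in each label, and the spread within a pair was small beside the step. On the log2 scale *Srgn* rose by 0.51 ± 0.020 (SE) in WT, 0.26 ± 0.020 in HZ and 0.38 ± 0.020 in KO (edgeR adjusted p = 1.6e-26, 1.2e-15 and 2.1e-21). With library totals the rise was 0.20 in WT and 0.091 in KO, both past the test, and 0.027 in HZ (edgeR adjusted p = 0.21). In percent of all counts *Srgn* lay at 0.299 to 0.331% in resting and 0.323 to 0.348% in stimulated libraries.

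*Ndst2* had 691 and 686 CPM in resting WT and 439 and 433 CPM in stimulated WT libraries. In HZ it went from 969 and 969 to 453 and 447 CPM, and in KO from 722 and 707 to 543 and 553 CPM. All 6 stimulated libraries lay below all 6 resting libraries. *Ndst2* fell 1.58-fold in WT (log2 fold change -0.66 ± 0.027, edgeR adjusted p = 5.8e-26), 2.15-fold in HZ (-1.11 ± 0.027, adjusted p = 1.9e-35) and 1.30-fold in KO (-0.38 ± 0.027, adjusted p = 5.5e-17). The fall in HZ was past the 2-fold change that the study required. With library totals the log2 fold changes were -0.97, -1.34 and -0.67, all past the test. The ratio of *Srgn* to *Ndst2* in FPKM, which no scaling of the library touches, was 4.36 to 5.60 in resting and 9.25 to 12.6 in stimulated libraries. *Ndst2* made up 58.5 to 65.5% of the summed FPKM of the 9 enzyme genes in resting and 46.1 to 55.1% in stimulated libraries.

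**Figure D2:**
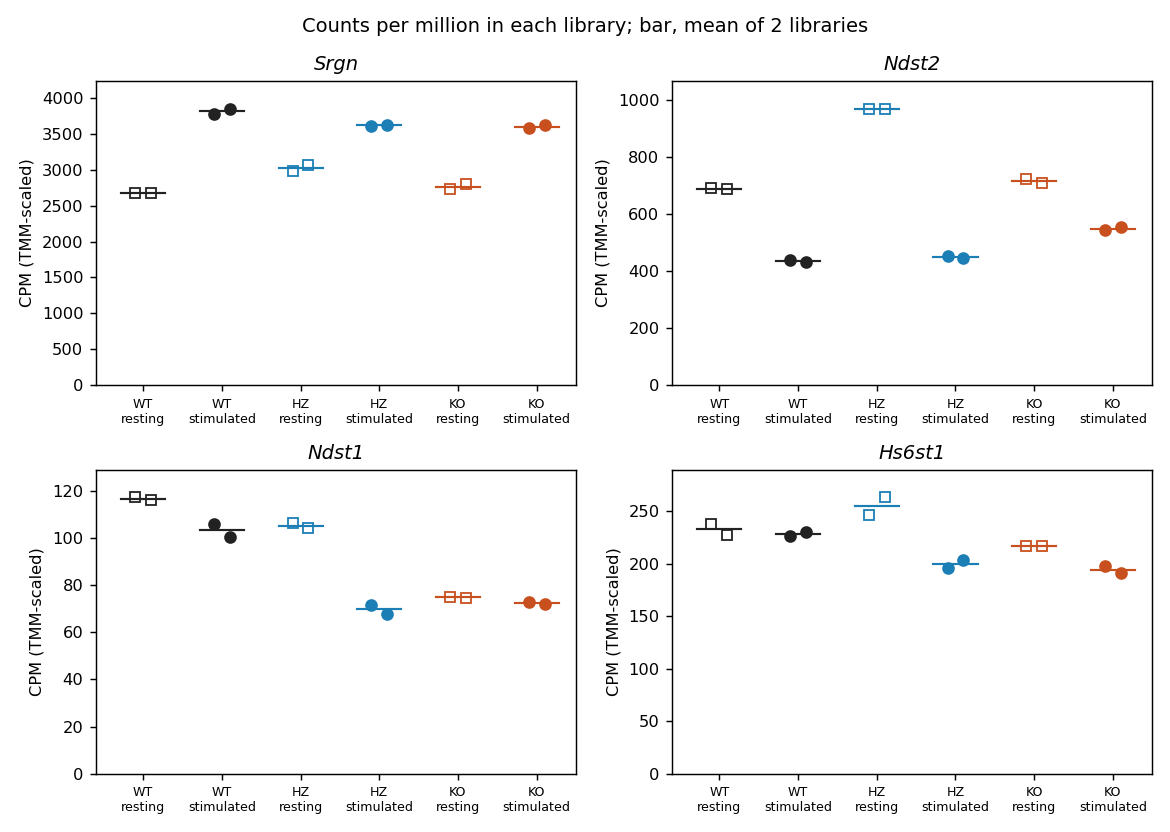
TMM-scaled CPM of *Srgn*, *Ndst2*, *Ndst1* and *Hs6st1* in each library (points) with the mean of the 2 libraries of a group (bars), on axes from 0. *Srgn* is higher and *Ndst2* lower in the stimulated libraries of each label, and *Ndst1* stands at 67.9 to 75.0 CPM in stimulated HZ and in both states of KO.

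*Ndst1*, the other N-deacetylase/N-sulfotransferase among the genes chosen, had 117 and 116 CPM in resting WT and 106 and 101 CPM in stimulated WT libraries. It went from 106 and 104 to 71.7 and 67.9 CPM in HZ. In KO it had 75.0 and 74.6 CPM at rest and 72.7 and 72.0 CPM after stimulation. The log2 fold change was -0.18 ± 0.047 for WT cells and -0.59 ± 0.048 for HZ cells (edgeR adjusted p = 0.0017 and 5.4e-15), and -0.048 ± 0.049 in KO (adjusted p = 0.48). The WT value missed the threshold without stimulated replicate 2 (edgeR adjusted p = 0.056). With library totals *Ndst1* fell by 0.48, 0.82 and 0.34 in WT, HZ and KO, all past the test.

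Of the enzymes that start and extend the chain, *Xylt1* rose in all 3 labels on the TMM scale. This xylosyltransferase of the linkage region had 14.3 and 14.3 CPM in resting WT and 18.2 and 17.9 CPM in stimulated WT libraries. It rose by 0.34 ± 0.10 in WT, 0.46 ± 0.10 in HZ and 0.46 ± 0.10 in KO on the log2 scale (edgeR adjusted p = 0.0063, 0.00013 and 0.00017). With library totals these values were 0.028, 0.23 and 0.17, with adjusted p of 0.82, 0.049 and 0.13 in edgeR. *Ext1*, a subunit of the heparan polymerase, went from 10.2 and 8.04 to 12.6 and 13.1 CPM in HZ. That rise of 0.49 ± 0.13 passed the test (edgeR adjusted p = 0.00087), but not without resting HZ replicate 2 (adjusted p = 0.052) and not with library totals (0.26, adjusted p = 0.071). The *Ext1* values in WT and KO were 0.25 ± 0.12 and -0.15 ± 0.13 and did not pass. *Ext2*, the other subunit, lay between 83.8 and 103 CPM in all libraries, and its log2 fold changes were 0.12 ± 0.050 in WT (edgeR adjusted p = 0.051), -0.0082 in HZ and 0.0040 in KO. With library totals *Ext2* was called lower in all 3 labels, by 0.19, 0.24 and 0.28.

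Among the modifying enzymes, *Hs6st1*, the glucosaminyl 6-O-sulfotransferase, fell in HZ and KO. It went from 247 and 263 to 196 and 203 CPM in HZ and from 217 and 217 to 198 and 191 CPM in KO, whereas WT libraries stood at 238 and 228 CPM at rest and 226 and 230 CPM after stimulation. The log2 fold changes were -0.35 ± 0.036 in HZ and -0.16 ± 0.037 in KO (edgeR adjusted p = 7.8e-12 and 0.00029), and -0.031 ± 0.036 in WT (adjusted p = 0.53). With library totals the WT value was -0.34 and passed. *Hs6st2*, the other tested 6-O-sulfotransferase, was called higher after stimulation in each label on the TMM scale. With library totals *Hs6st2* was called higher in no label and lower in KO. *Hs2st1*, the uronyl 2-O-sulfotransferase, lay between 46.7 and 55.3 CPM in all libraries. It passed the test in none of the 11 comparisons on the TMM scale, with an unadjusted p under 0.05 in 1 of them. DESeq2 called it in 0 of them and limma on log2(FPKM + 1) in 2. With library totals *Hs2st1* was lower by 0.34 in WT and 0.31 in KO cells after stimulation and by 0.18 in stimulated KO against HZ. *Glce*, the epimerase, had 123 to 267 counts per library and was the least precise of the 10 genes. It fell by 0.58 ± 0.18 in KO (edgeR adjusted p = 0.0084), a call lost without resting KO replicate 2 (adjusted p = 0.13) or stimulated KO replicate 1 (0.066), and stood at -0.36 ± 0.18 in WT and -0.079 ± 0.18 in HZ.

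*Chst11*, which sulfates chondroitin chains, went from 138 and 139 to 176 and 174 CPM in WT and from 146 and 143 to 179 and 179 CPM in KO. In HZ the resting libraries stood at 182 and 171 CPM and the stimulated libraries at 178 and 170 CPM, which overlap. It rose by 0.33 ± 0.039 in WT and 0.31 ± 0.039 in KO (edgeR adjusted p = 6.0e-10 and 5.6e-09), and the value in HZ was -0.018 ± 0.038 (adjusted p = 0.69). With library totals the values were 0.026 in WT and 0.018 in KO, which did not pass, and -0.25 in HZ, which did.

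**Figure D3:**
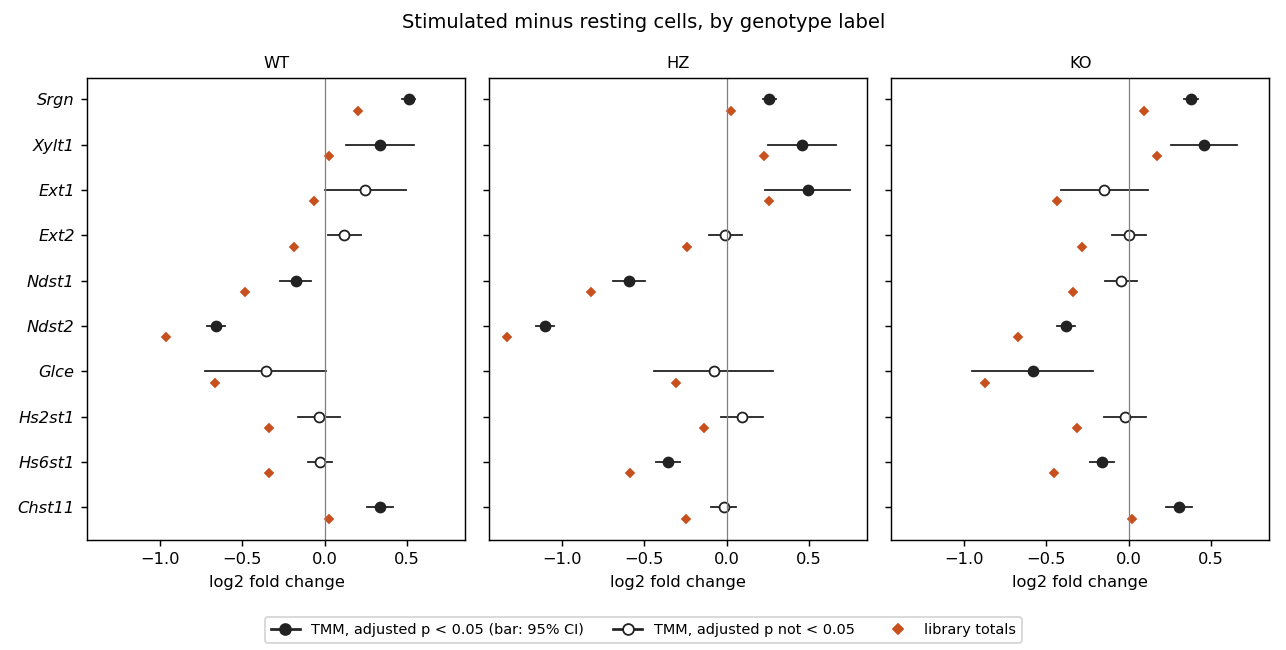
Log2 fold change of stimulated against resting cells for the 10 genes, by genotype label. Circles with 95% intervals are TMM-scaled (filled where the edgeR adjusted p is below 0.05) and orange diamonds use library totals. *Ndst2* lies left of 0 in all 3 panels on both scales, the diamonds lie left of the circles throughout, and *Srgn* at 0.027 in HZ is nearest to 0 of its 3 diamonds.

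Genotype labels were next compared in resting cells. These comparisons, and those after stimulation, share the WT libraries, and the HZ libraries for KO against HZ. *Ndst1* and *Ext1* were lower in KO and in HZ than in WT, and *Ndst2*, *Srgn* and *Chst11* were higher in HZ than in WT. In KO against WT, 3 of the 10 genes passed the test where 44.6% of all genes passed, and 1 passed without resting KO replicate 2. All 3 were lower (21.7% of all genes), and 0 were higher (22.9%). For HZ against WT, 6 passed beside 51.4% of all genes, with 4 higher (25.4%) and 2 lower (26%). For KO against HZ, 6 passed beside 45.2% of all genes, with 1 higher (23.4%) and 5 lower (21.8%). The 2-fold change required by the study was reached by 0 of the 10 genes in each, beside 7.51%, 9.15% and 3.36% of all genes.

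*Ndst1* stood at 117 and 116 CPM in resting WT, 106 and 104 in HZ, beside 75.0 and 74.6 in KO, so the labels did not overlap. It was lower than in WT by 0.64 ± 0.047 in KO and by 0.15 ± 0.046 in HZ, with log2 fold changes of -0.64 and -0.15 (edgeR adjusted p = 4.7e-16 and 0.0065), and KO lay below HZ (-0.49 ± 0.047, adjusted p = 3.2e-12). *Ext1* had 13.4 and 14.4 CPM in WT, 10.2 and 8.04 in HZ, beside 10.7 and 10.4 in KO. Its log2 fold change against WT was -0.61 ± 0.13 in HZ (edgeR adjusted p = 7.3e-05) and -0.40 ± 0.12 in KO (adjusted p = 0.0078). The KO value was lost without resting WT replicate 2 (adjusted p = 0.087) or resting KO replicate 2 (0.055).

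*Ndst2* was highest in HZ at rest, with 969 CPM in both libraries beside 686 to 722 CPM in WT and KO. HZ exceeded WT by 0.49 ± 0.026 on the log2 scale (edgeR adjusted p = 3.1e-21), KO lay below HZ by a log2 fold change of -0.44 ± 0.026 (adjusted p = 5.5e-19), and KO against WT was 0.054 ± 0.026 (adjusted p = 0.093). *Chst11* showed the same order, with 171 to 182 CPM in HZ, 138 and 139 in WT and 143 and 146 in KO (HZ against WT 0.34 ± 0.039, edgeR adjusted p = 1.7e-10). *Srgn* exceeded WT in HZ by 0.18 ± 0.020 (edgeR adjusted p = 2.5e-10), and its KO value of 0.047 ± 0.020 missed the threshold (adjusted p = 0.051). Marker lists also differed between labels at rest, and some were higher and some lower in resting HZ. The mast cell list summed to 62968 to 64262 CPM there, beside 52064 to 52979 in WT and 56613 to 57641 in KO. The megakaryocyte list summed to 2850 to 2851 CPM in HZ and 2016 to 2059 in WT, most of it *Itga2b* (means of 2417 and 1717 CPM), while *Pf4* stood at 0.089 CPM or below in every group mean. The basophil list summed to 681 CPM in HZ and 601 to 606 in WT, most of it *Cd200r3*. The eosinophil list was higher too (2.24 to 2.36 CPM in HZ, 0.858 to 1.48 in WT). The macrophage or monocyte list was lower, at 38.6 to 40.9 CPM in HZ and 47.6 to 51.0 in WT. So were the neutrophil list (42.3 to 44.4 and 305 to 307) and the dendritic cell list (1.30 to 1.32 and 5.60 to 7.58), nearly all of it *Itgax*. The lower macrophage or monocyte sum came from *Cd68*, with means of 20.5 CPM in resting HZ and 39.1 in resting WT. In the same list *Lyz2* (10.2 and 4.26 CPM), *Adgre1* (5.85 and 3.54) and *Ccr2* (2.62 and 1.30) were higher in HZ. Its other genes stood below 1 CPM in both. The part of these lists in the resting HZ results was not tested. *Hs6st1* differed by 0.13 ± 0.036 in HZ and -0.10 ± 0.036 in KO against WT (edgeR adjusted p = 0.0021 and 0.021). Both *Hs6st1* calls were lost without single libraries, with an adjusted p of 0.081 without WT replicate 2 and 0.14 without HZ replicate 2 for HZ, and 0.25 without WT replicate 1, 0.084 without KO replicate 1 and 0.087 without KO replicate 2 for KO. *Xylt1* was higher in KO than in HZ (0.29 ± 0.10, edgeR adjusted p = 0.019), a call lost without HZ replicate 2 (0.13) or KO replicate 1 (0.17). The *Hs6st1* call in HZ was also lost with library totals (0.080, edgeR adjusted p = 0.054). *Ext2*, *Glce* and *Hs2st1* passed in none of the 3 resting comparisons by edgeR on the TMM scale. Of these 9 values 1 had an unadjusted p under 0.05, and DESeq2 and limma on log2(FPKM + 1) called 0. With library totals *Ext2* was lower in KO than in WT (-0.14, edgeR adjusted p = 0.026).

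After stimulation, the same contrasts gave 7 of the 10 genes in KO against WT where 40.4% of all genes passed, with 2 higher (21.2% of all genes) and 5 lower (19.2%). For HZ against WT, 5 genes passed beside 34.9% of all genes, with 0 higher (18.4%) and 5 lower (16.5%). For KO against HZ, 3 passed beside 24.9% of all genes, with 2 higher (12.9%) and 1 lower (12%). The 1.5-fold change the study required in stimulated cells was reached by 1 of the 10 genes in KO against WT (12.8% of all genes) and by 0 in HZ against WT (8.01%) and KO against HZ (5.41%). The 5 lower genes were *Ext1*, *Ext2*, *Ndst1*, *Hs6st1* and *Srgn* for KO and for HZ, in contrasts that share the stimulated WT libraries. Without stimulated HZ replicate 2, the counts fell to 3 in HZ against WT and to 1 in KO against HZ. *Ndst2* and *Xylt1* were higher in KO than in WT and in KO than in HZ.

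*Ext1* had 17.2 and 15.8 CPM in stimulated WT, 12.6 and 13.1 in HZ, beside 8.70 and 10.4 in KO. It was 1.73-fold lower in KO than in WT (log2 fold change -0.79 ± 0.13, edgeR adjusted p = 1.6e-06), the change past that threshold. HZ against WT was -0.36 ± 0.12 (edgeR adjusted p = 0.019) and KO against HZ was -0.43 ± 0.13 (adjusted p = 0.011), both of which were lost when single libraries were left out (adjusted p up to 0.15 and up to 0.18). *Ndst1* was lower than in WT by a log2 fold change of -0.51 ± 0.049 in KO and -0.57 ± 0.049 in HZ (edgeR adjusted p = 2.3e-12 and 1.7e-13), whereas KO and HZ differed by 0.052 ± 0.050 (adjusted p = 0.51). *Hs6st1* and *Ext2* stood at -0.23 ± 0.037 and -0.23 ± 0.051 in KO and at -0.19 ± 0.037 and -0.19 ± 0.051 in HZ. The *Ext2* call in HZ was lost without stimulated HZ replicate 2 (edgeR adjusted p = 0.25). *Srgn* differed from WT by -0.084 ± 0.020 in KO and -0.076 ± 0.020 in HZ on the log2 scale (-5.65 and -5.13%), and the HZ value was lost without stimulated WT replicate 2 (edgeR adjusted p = 0.073).

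*Ndst2* was higher in stimulated KO, with 543 and 553 CPM, than in WT (439 and 433 CPM; 0.33 ± 0.027, edgeR adjusted p = 1.9e-14) or HZ (453 and 447 CPM; 0.28 ± 0.027, adjusted p = 6.3e-12), and HZ against WT was 0.046 ± 0.027 (adjusted p = 0.19). *Xylt1* had 21.6 and 24.0 CPM in KO beside 18.2 and 17.9 in WT and 19.2 and 18.1 in HZ. Its log2 fold changes of 0.33 ± 0.10 against WT and 0.29 ± 0.10 against HZ (edgeR adjusted p = 0.0062 and 0.027) were lost without stimulated KO replicate 2 (adjusted p = 0.11 and 0.28), and the second also without HZ replicate 1 (0.055) or HZ replicate 2 (0.17). *Chst11*, at 170 to 179 CPM in all stimulated libraries, and *Glce* and *Hs2st1* passed in none of the 3 stimulated comparisons by edgeR on the TMM scale. Of these 9 values 1 had an unadjusted p under 0.05, and DESeq2 and limma on log2(FPKM + 1) called 0. With library totals *Hs2st1* was lower in KO than in HZ (-0.18, edgeR adjusted p = 0.035), and it was lower in KO than in WT without stimulated WT replicate 2 (-0.21, adjusted p = 0.027).

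**Figure D4:**
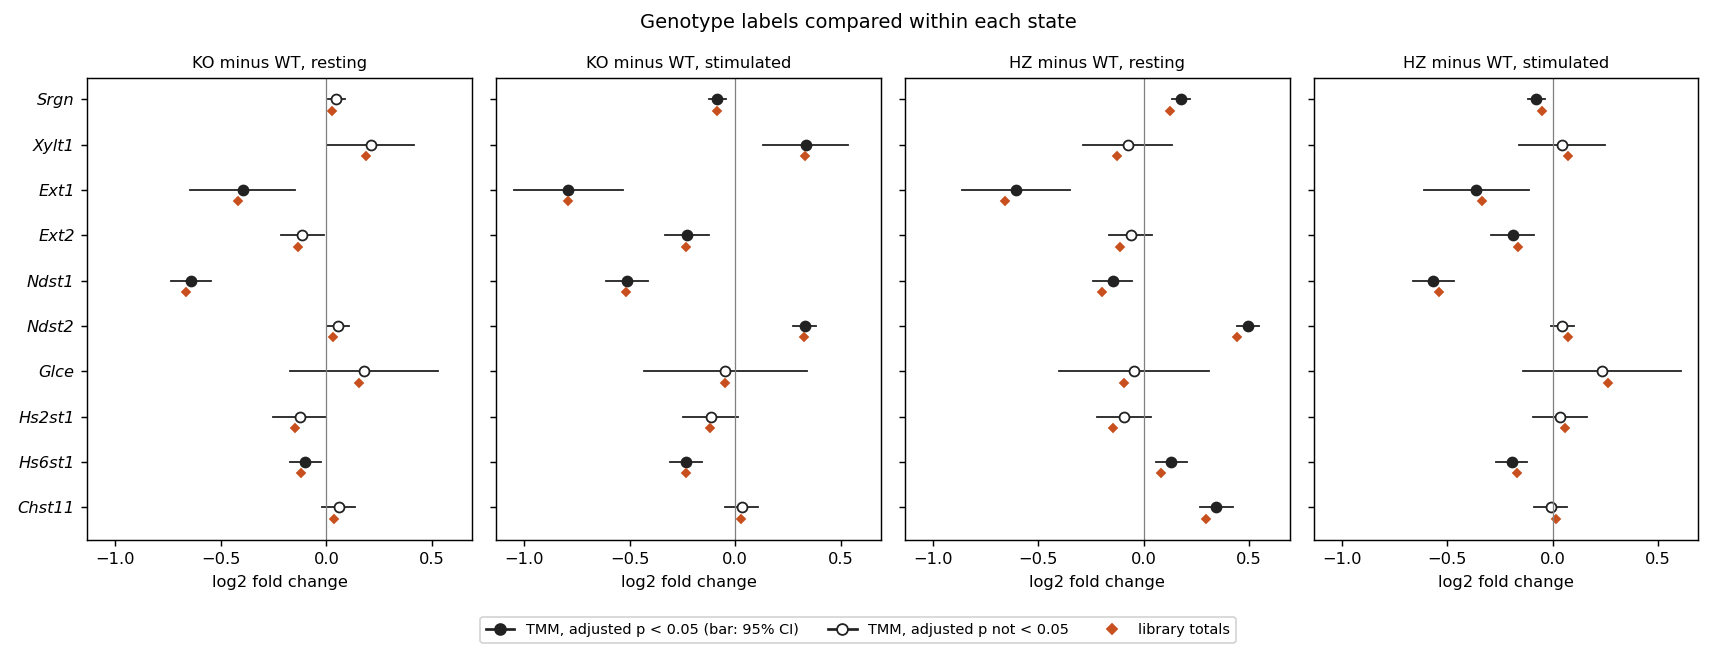
Log2 fold change of the 10 genes for KO and HZ against WT, in resting and in stimulated cells. Circles with 95% intervals are TMM-scaled (filled where the edgeR adjusted p is below 0.05) and orange diamonds use library totals. *Ndst1* and *Ext1* lie left of 0 in all 4 panels, *Ndst2* reaches 0.49 in resting HZ and 0.33 in stimulated KO, and the diamonds stay near the circles.

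The difference in response between labels was tested as an interaction in the same model. *Ndst2* responded differently in both labels, with a smaller fall in KO than in WT (interaction 0.28 ± 0.038, edgeR adjusted p = 3.2e-07) and a larger fall in HZ than in WT (-0.45 ± 0.038, adjusted p = 8.2e-14). *Srgn* rose less in KO (-0.13 ± 0.028, adjusted p = 0.0011) and less in HZ (-0.25 ± 0.028, adjusted p = 3.5e-10) than in WT. For KO these were the 2 of 10 genes that passed, beside 9.27% of all genes (5.44% positive, 3.83% negative). For HZ 5 passed, all negative, beside 38.5% of all genes (19.9% positive, 18.6% negative), and the further ones were *Ndst1* (-0.42 ± 0.067), *Chst11* (-0.35 ± 0.055) and *Hs6st1* (-0.32 ± 0.051). With library totals the same genes passed in the same direction. The *Srgn* call in KO was lost with limma on unfiltered log2(FPKM + 1) values (-0.11, adjusted p = 0.094). In HZ the share of all called genes that were positive moved from 51.6 to 64.4% with library totals, and in KO from 58.7 to 66.9%. The *Ndst1* interaction in KO was 0.13 ± 0.068 (edgeR adjusted p = 0.28), so the absence of a called response there was not shown to differ from WT.

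Further genes of the pathway were taken from 13 lists of 105 genes, which include the 10 above. Of the other 95, 83 were present and 67 were tested. In the response on the TMM scale, 19 rose and 8 fell in WT (22.4 and 22.9% of all genes), 24 rose and 17 fell in HZ (32.9 and 31.6%), and 19 rose and 13 fell in KO (20.4 and 20.5%), where the sum of 32 dropped to 21 without stimulated KO replicate 2. Their median log2 fold changes were 0.010, -0.0048 and -0.021. With library totals 6 were higher and 37 lower in WT, 14 higher and 31 lower in HZ, and 7 higher and 37 lower in KO. In resting cells 13 were higher and 18 lower in KO than in WT (22.9 and 21.7% of all genes), and 21 were higher and 17 lower in HZ than in WT (25.4 and 26%). Of the 10 genes that make or carry nucleotide sugars, 6 rose and 0 fell in WT, 7 rose and 0 fell in HZ, and 4 rose and 1 fell in KO on the TMM scale, with a median of 0.18 in WT. With library totals the direction turned in WT and KO, where 1 was higher and 4 lower and 2 were higher and 4 lower, and in HZ 5 were higher and 2 lower. Of the 16 lysosomal enzymes that break the chains down, 1 rose and 1 fell in WT, 4 rose and 8 fell in HZ, and 2 rose and 5 fell in KO. With library totals 0 were higher and 13 lower in WT, 2 higher and 10 lower in HZ, and 0 higher and 11 lower in KO. Most called genes among all those tested were lower on that scale too. Of the 67 genes, the study's fold threshold was passed by 3 in the WT, 8 in the HZ and 3 in the KO response (6.77, 14.3 and 6.61% of all genes). At rest 9 passed it in KO against WT, 11 in HZ against WT and 2 in KO against HZ (7.51, 9.15 and 3.36% of all genes). After stimulation the counts were 13, 11 and 4 (12.8, 8.01 and 5.41% of all genes). The genes with the largest changes are described next.

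Both well-measured heparan 3-O-sulfotransferases rose after stimulation in each label. *Hs3st1*, which adds the sulfate used by antithrombin, had 78.6 and 82.5 CPM in resting and 186 and 201 CPM in stimulated WT libraries. It went from 79.3 and 77.1 to 123 and 130 CPM in HZ and from 53.9 and 55.6 to 162 and 162 CPM in KO. The log2 fold changes were 1.26 ± 0.046, 0.70 and 1.57 ± 0.047 in WT, HZ and KO, all past the edgeR test. *Hs3st3b1*, another member of the family, had 3.35 and 3.09 CPM in resting WT and 55.1 and 53.5 CPM in stimulated WT, but 0.662 and 0.364 CPM in resting HZ and 0.240 and 0.479 CPM in resting KO, from 9 to 23 counts per library. After stimulation it reached 6.49 and 7.98 CPM in HZ and 8.59 and 9.10 CPM in KO. It was thus lower in HZ and KO than in WT in both states, with log2 fold changes of -3.16 ± 0.27 for resting and -2.62 ± 0.13 for stimulated KO against WT (edgeR adjusted p = 5.2e-14 and 2.4e-22). *Sulf2*, a sulfatase that trims glucosaminyl sulfate outside the cell, had 30.9 and 27.6 CPM in resting WT, 3.57 and 3.94 in HZ, beside 2.91 and 2.68 in KO. Its log2 fold changes at rest were -3.39 ± 0.13 in KO and -2.96 ± 0.13 in HZ (edgeR adjusted p = 3.0e-26 and 9.6e-25).

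**Figure D5:**
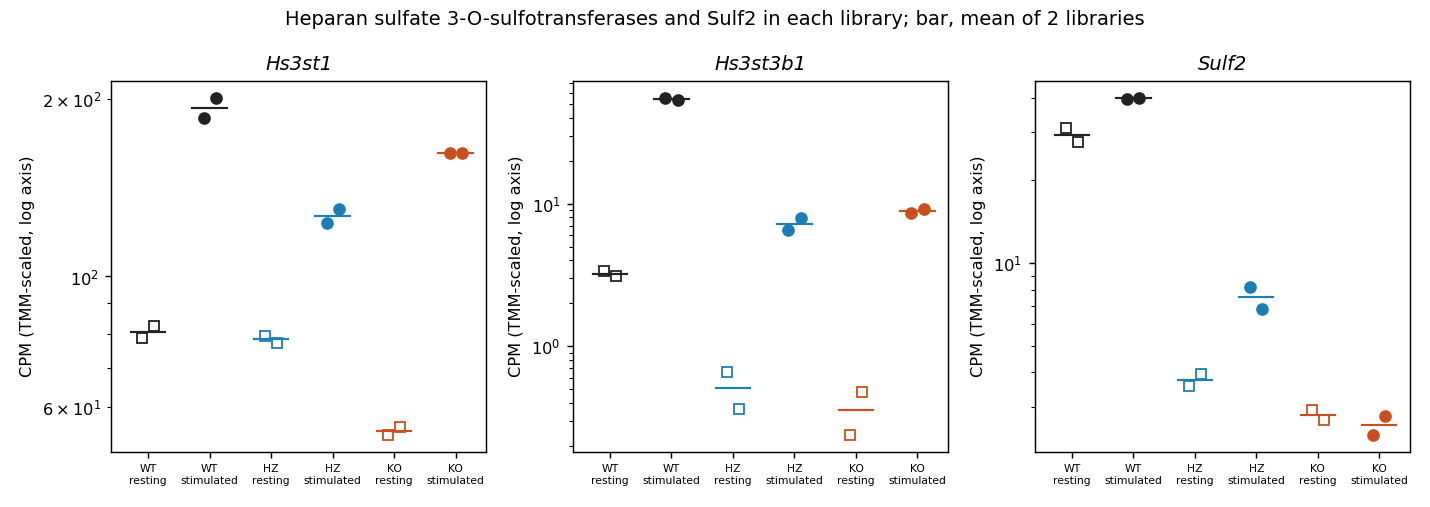
TMM-scaled CPM of *Hs3st1*, *Hs3st3b1* and *Sulf2* in each library on log axes (points; bars are means of the 2 libraries of a group). *Hs3st1* and *Hs3st3b1* are higher in the stimulated libraries of each label, and *Hs3st3b1* and *Sulf2* are lower in HZ and KO than in WT in both states.

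Other genes of proteoglycans and of their breakdown differed by label. *Vcan*, the core protein versican, went from 35.4 and 32.5 to 72.0 and 72.2 CPM in WT, and had 101 and 98.3 CPM in resting HZ and 96.2 and 96.0 CPM in stimulated HZ. In KO it went from 60.5 and 54.6 to 110 and 108 CPM (0.92 ± 0.053). *Gpc1*, the cell surface core protein glypican, had 11.8 and 9.49 CPM in resting WT and 1.47 to 2.51 CPM in resting HZ and KO. *Nrp1*, a receptor that can carry a sugar chain, had 3.59 and 4.89 CPM in resting WT, 4.87 and 4.70 in HZ, beside 16.6 and 17.5 in KO. *Csgalnact1*, which starts chondroitin chains, was higher in resting KO than in WT by 2.29 ± 0.35 and in resting HZ by 1.78 ± 0.36 on the log2 scale, at 0.486 to 3.39 CPM. Lysosomal *Arsb* stood at 10.3 and 9.29 CPM in resting WT and at 1.66 to 2.05 CPM in resting HZ and KO. *Galns*, another lysosomal sulfatase, went from 6.97 and 6.88 to 19.4 and 16.9 CPM in HZ (1.39 ± 0.12), and *Sgsh*, the lysosomal sulfamidase, from 108 and 103 to 51.5 and 47.9 CPM (-1.08 ± 0.055). *Sgsh* also fell in WT, from 60.9 and 62.4 to 49.2 and 47.9 CPM (-0.34 ± 0.057), and in KO, from 76.2 and 81.0 to 63.4 and 60.0 CPM (-0.35 ± 0.055). *Chst14*, which sulfates dermatan, fell in all 3 labels and passed the test in none of the comparisons between labels. It went from 8.18 and 7.26 to 4.44 and 3.73 CPM in WT (-0.92 ± 0.18), from 6.77 and 7.31 to 3.72 and 3.92 CPM in HZ (-0.88 ± 0.18) and from 7.17 and 6.96 to 3.49 and 3.23 CPM in KO (-1.07 ± 0.18).

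The genes whose pattern over the 12 libraries was most like *Srgn* and *Ndst2* were found by Pearson's r of log2 CPM among tested genes with a mean log2 CPM of at least 4 for *Srgn* and at least 2 for *Ndst2*. The libraries share their 6 groups and their TMM scaling, so r is given as a description. For *Srgn* they were *Insig1* (0.989), *Ypel5* (0.987), *Rilpl2* (0.985), *Rap1b* (0.984) and *Fbxo30* (0.981) among 7311 genes. *Insig1*, a regulator of sterol synthesis, had group means of 112 CPM in resting and 238 CPM in stimulated WT. For *Ndst2* they were *Ip6k1* (0.988), *Anks3* (0.986), *Pik3ip1* (0.985), *Tbc1d10c* (0.984) and *Inpp5k* (0.984) among 9551 genes. *Pik3ip1*, an inhibitor of PI3 kinase, had 44.4 CPM in resting WT, 135 in resting HZ and 72.6 in resting KO, and 17.3, 20.2 and 30.3 CPM after stimulation.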

How the data were processed

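RNA was sequenced from BMMCs on an Illumina instrument. The authors deposited raw counts per gene and FPKM values for the same genes, and the submitters' processing notes name fastp, HISAT2, HTSeq and the build GRCm39, with versions not given in the sources used here. The deposited FPKM values followed gene length and the library total of counts. No genome of that build was used here, so genes carry no positions in these data, and sequences come from GRCm38.

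The analysis used R 4.3.3 and edgeR 4.0.16 on the counts, with filterByExpr, TMM scaling, and a quasi-likelihood test with 1 mean for each of the 6 groups, fitted over all 12208 genes and 12 libraries. Genes were called at a Benjamini-Hochberg adjusted p below 0.05, and fold changes used a prior count of 0.125. CPM were TMM-scaled. P-values are two-sided. The members and lists were chosen with earlier results of these data known. Named further genes are up to 3 in each direction of each response and genotype comparison with the largest called change of at least 2-fold and a mean of at least 1 CPM, and the 5 most like *Srgn* and *Ndst2*. Alternatives were DESeq2 1.42.0, its size factors in edgeR, library totals, other filters, only the groups compared, a replicate block, leaving out each replicate, and limma 3.58.1 on log2(FPKM + 1) and log2(FPKM + 0.1). The test was also run on simulated data with as many genes raised as lowered. That run cannot tell which scaling is right or whether replicates are independent. With 2 libraries per group, the number of libraries limits the precision.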

Additional observations from a re-analysis of the deposited data

Results flagged for a closer look

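The response to IgE and antigen differed between genotype labels by an interaction test in edgeR for 3 named genes in KO and 13 in HZ. The values are log2 differences from the WT response. The genes outside the 10 were named for large changes in response and genotype comparisons, which enter these interactions. Their numbers therefore do not show how often pathway genes pass. In KO the called genes were *Ndst2* (0.28 ± 0.038), *Srgn* (-0.13 ± 0.028) and, among genes outside the 10, *Hs3st1* (0.30 ± 0.066, adjusted p = 0.0011). The *Srgn* call was lost with limma on unfiltered log2(FPKM + 1) values (-0.11, adjusted p = 0.094). *Hs3st1* thus rose more from its lower resting level in KO.

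In HZ, 5 of the 10 genes had a response below that of WT, namely *Ndst2* (-0.45), *Ndst1* (-0.42), *Chst11* (-0.35), *Hs6st1* (-0.32) and *Srgn* (-0.25). The further genes with a response below that of WT were *Vcan* (-1.14 ± 0.077), *Sgsh* (-0.73 ± 0.080) and *Hs3st1* (-0.57 ± 0.065). Those above it were *Nrp1* (1.38 ± 0.21), *Galns* (1.27 ± 0.16), *Arsb* (1.26 ± 0.29), *Gpc1* (1.16 ± 0.28) and *Sulf2* (0.56 ± 0.18, adjusted p = 0.0096), and the *Sulf2* call was lost without WT resting replicate 1 (0.059), HZ resting replicate 1 (0.059) or HZ stimulated replicate 1 (0.097). For *Ndst2*, *Ndst1*, *Chst11* and *Vcan*, the resting HZ libraries stood at 969 and 969, 106 and 104, 182 and 171, and 101 and 98.3 CPM. Those of *Ndst2*, *Chst11* and *Vcan* lay above resting WT, whereas those of *Ndst1* lay below it (117 and 116 CPM in WT). The tests share the resting and stimulated WT libraries, and 38.5% of all genes passed the same HZ test.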

How the results depend on the processing

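Of the 10 genes' log2 fold changes over the 11 comparisons, 1055 recomputed values that kept all libraries stayed on the same side of the threshold in the same direction, 49 gained and 38 lost the call, and 8 reversed. The 8 were *Ext2* in the response, which in WT was 0.12 with TMM and -0.19 with library totals, -0.18 with limma on log2(FPKM + 1), with or without a filter, and -0.19 with limma on log2(FPKM + 0.1), and in KO was 0.0040 with TMM and -0.28, -0.27, -0.27 and -0.28. Those alternatives scale by library totals. *Hs3st3b1* had an interaction of 0.54 in KO with edgeR (adjusted p = 0.37) and -1.39 with limma on log2(FPKM + 1), with or without a filter, a scale on which a low resting level is held near 0. With limma and no filter, the count of the 10 genes called went from 5 to 3 in stimulated HZ against WT, from 3 to 1 in stimulated KO against HZ and from 2 to 1 in the KO interaction, where *Srgn* was lost.

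Over all genes, library totals raised the called count in the KO response from 4983 to 8154, and limma on log2(FPKM + 1) raised it to 7704 and lowered that of the KO interaction from 1132 to 716. Of the 67 other pathway genes, 27 were called in the WT response with TMM and 43 with library totals (41 to 42 with limma), 38 and with limma 23 to 24 in resting HZ against WT, 16 and with limma and no filter 10 in stimulated KO against HZ, and 5 and with limma 2 to 3 in the KO interaction. *Ndst1* in stimulated HZ against WT passed the 1.5-fold change with DESeq2 or its size factors.

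Leaving out each library in turn gave counts of 4 to 6 in the WT response, 5 to 6 in HZ and 5 to 6 in KO. The counts were 1 to 3 in resting KO against WT, 5 to 6 in HZ against WT, 5 to 7 in KO against HZ, and 6 to 8, 3 to 4 and 1 to 2 in the same contrasts after stimulation. They were 2 in the KO and 5 to 6 in the HZ interaction. A fit left with 1 library in a group assumes that it varies like the others.

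Libraries with the same replicate number showed little shared deviation, as the 15 correlations of deviations between groups lay between -0.036 and 0.063. This cannot tell whether such libraries came from the same mouse or culture. Values near 0 would also arise if both libraries of a group had a single source. With the replicate block the counts were 6 of 10 in each response, 4, 6 and 6 in the resting contrasts, 7, 5 and 3 in the stimulated contrasts and 2 and 5 in the interactions. *Ext2* in the WT response, at an edgeR adjusted p of 0.051, passed with the block (0.047) and with the 6 further alternatives that gave a count of 6, at 0.027 to 0.048, but not without any 1 of the 4 WT libraries (0.089 to 0.17). *Srgn* in resting KO against WT passed with the block (0.038), with no filter (0.045) and without resting KO replicate 1 (0.026). *Glce*, with 123 to 267 counts per library, had standard errors near 0.18, which limits smaller changes.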
